A study of Homo sapiens with 24 samples.

Results

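Histone-modifying enzymes add chemical marks to the histone tails of chromatin or take them off. Their labelled cytoplasmic RNA was followed here along a chase. The members were the gene symbols that begin with KDM, KMT, SETD, HDAC, KAT, SIRT, EHMT or SUV followed by a digit and that averaged at least 1 TPM over all 24 libraries. The unit TPM is an abundance per transcript length, and it adds up to the same total in every library. Of 68 symbols with such a name, 65 passed, out of 13416 genes that passed the same level in the whole table. The 3 that did not pass included KDM4E at 0.0188 TPM and HDAC9 at 0.145 TPM. Just inside the threshold were SIRT4 at 1.44 TPM and EHMT1-IT1 at 1.49 TPM. The 65 held 62 enzymes and 3 noncoding RNAs named after an enzyme gene, EHMT1-IT1, KDM4A-AS1 and KMT2E-AS1. Among the enzymes were 28 writers, of which 21 were methyltransferases and 7 acetyltransferases. The other 34 were erasers, with 17 demethylases, 10 deacetylases and 7 sirtuins. These classes were taken from the symbols alone, and whether each member has that activity was not checked.

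All libraries came from U2OS, a human osteosarcoma line, in a stable Tet-off line that carries a switchable TOB2 S254D transgene. The induced arm was grown without doxycycline and expressed the mutant, and the uninduced arm was grown with doxycycline, so the drug and the transgene cannot be told apart. RNA labelled with bromouridine was pulled down from cytoplasmic RNA after 0, 0.5, 1, 2, 4 and 6 h of chase, with 2 libraries for each arm and time. The labels do not say that those 2 came from separate cultures, so the spread between libraries behind the p-values may be technical. For slopes along the chase, that spread also holds the departure of a gene from a straight line. They also do not say whether the line was a single clone.

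Acetyltransferases and methyltransferases write marks on lysines, while deacetylases, sirtuins and demethylases erase them. Acetylation loosens chromatin and is read by bromodomain proteins. Methylation has opposite associations at different lysines, with active promoters and gene bodies at some and with silent chromatin at others. TOB2 belongs to the BTG/TOB family, adaptor proteins that bring the CCR4-NOT deadenylase to mRNAs and so promote shortening of the poly(A) tail. Some members with these names act mainly elsewhere, such as the mitochondrial sirtuins SIRT3, SIRT4 and SIRT5 and the actin methyltransferase SETD3.

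TOB2 itself was at 499 to 725 TPM in the 12 induced libraries, with a median of 617 TPM, against 92.3 to 267 TPM with a median of 222 TPM in the 12 uninduced libraries. The ranges did not overlap. The epithelial keratins KRT8 and KRT18 averaged 828 and 1584 TPM and vimentin (VIM) 580 TPM. Of the other epithelial markers EPCAM, CDH1, KRT5 and KRT14 were below 1 TPM and CLDN4 averaged 1.22 TPM. Of the bone markers, RUNX2 averaged 4.13 TPM, COL1A1 12.5 TPM and BGLAP 1.72 TPM, while SP7, ALPL, IBSP, SPARC and COL1A2 were below 1 TPM. Sequencing depth was unknown, and 12594 to 13757 genes reached 1 TPM in a library. In bulk RNA, a lower value from fewer cells and from less RNA per cell cannot be told apart.

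The writers were the more abundant group. Their median level was 34.6 TPM, from KAT2B at 4.60 TPM to SETD2 at 106 TPM, against a median of 16.5 TPM for the erasers, from SIRT4 at 1.44 TPM to KDM2A at 70.2 TPM. The median of all genes tested was 17.5 TPM. Only 2 of 28 writers averaged under 10 TPM, against 14 of 34 erasers and 4972 of the 13416 genes tested. After SETD2, the writers with the highest levels were SETD5 at 105 TPM, SETD8 (a methyltransferase of histone H4 also called KMT5A) at 95.2 TPM and KAT7 at 83.5 TPM. The ranges of these 4 over single libraries overlapped.

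**Figure D1:**
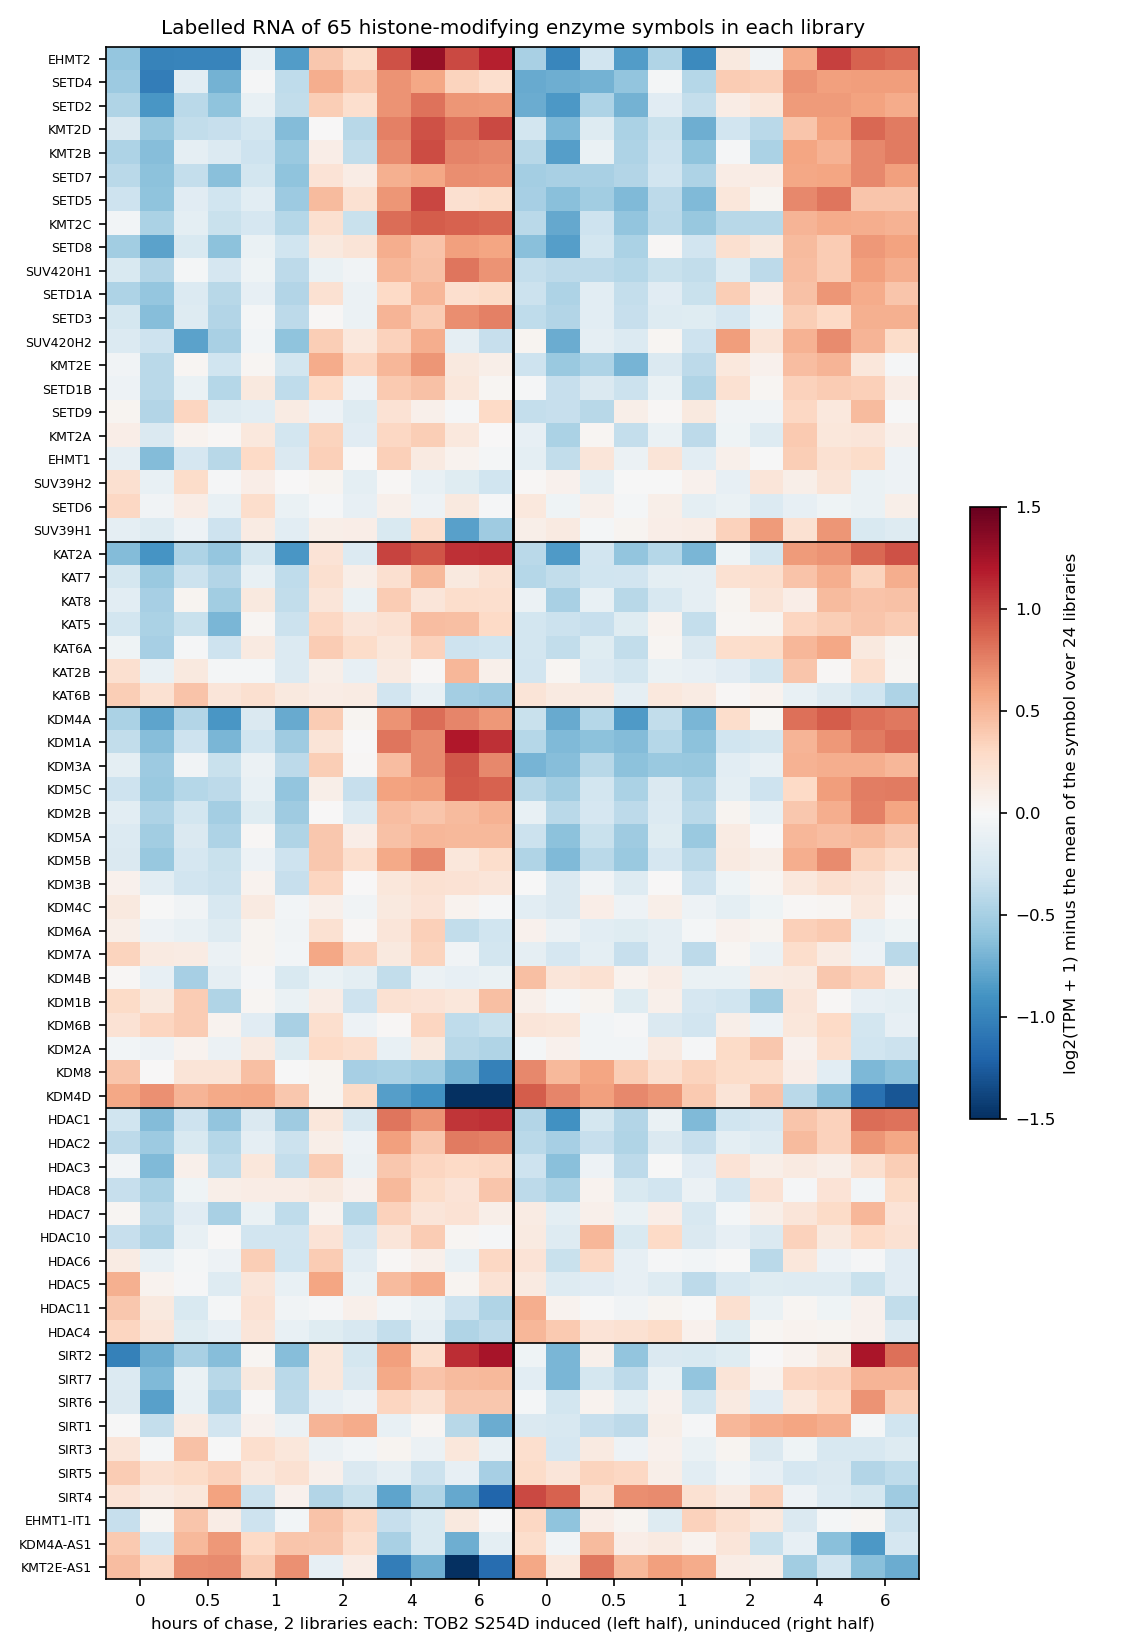
Each line is 1 of 65 symbols and each column 1 library, with the 12 induced libraries on the left and the 12 uninduced libraries on the right, in order of chase time. Colour is log2(TPM + 1) minus the mean of the symbol over 24 libraries, and colours stop changing beyond 1.5 in either direction. Most methyltransferases and acetyltransferases turn red at 4 and 6 h in both arms, while KDM4D, SIRT4, KDM8 and KMT2E-AS1 turn blue.

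Along the chase, most writers became a larger share of the labelled RNA in both arms. A straight line of log2(TPM + 1) on hours was fitted for each arm with limma, and a gene was called when its Benjamini-Hochberg adjusted p over all 13416 genes was below 0.05. A positive slope means a growing share of the labelled cytoplasmic RNA, which also receives labelled RNA leaving the nucleus during the chase. The 3 most abundant noncoding RNAs of the table, MIR6723, RMRP and RPPH1, together fell to 7.14% and 7.55% of all TPM at 6 h in the induced libraries, against 27.5% and 21.2% at 0 h. In the uninduced libraries they held 8.45% and 7.78% at 6 h, against 22.6% and 22.1% at 0 h. Counts without these RNAs are given below.

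In the induced arm 33 of 62 enzymes rose and 8 fell, against 41.6% of all genes that rose and 29.0% that fell. In the uninduced arm 39 rose and 6 fell, against 42.8% and 22.3% of all genes. Writers rose in 17 of 28 cases in the induced arm and in 23 of 28 in the uninduced arm, and 2 and 1 of them fell. Erasers rose in 16 of 34 cases in both arms, and 6 fell in the induced and 5 in the uninduced arm. The median slope was 0.13 in the induced and 0.14 in the uninduced arm for writers, in log2 units per hour, and 0.057 in the induced and 0.048 in the uninduced arm for erasers. Over all genes it was 0.028 in the induced and 0.039 in the uninduced arm.

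With libraries scaled by median-of-ratios, which centres on typical genes, 31 enzymes rose and 15 fell in the induced arm and 32 rose and 11 fell in the uninduced arm. Calls over all genes were then 35.0% higher and 36.2% lower in the induced arm, and 30.3% higher and 32.3% lower in the uninduced arm. Writers still rose more often than they fell, at 16 against 3 in the induced and 19 against 3 in the uninduced arm. For erasers the same counts were 15 against 12 in the induced arm and 13 against 8 in the uninduced arm. With the 3 abundant noncoding RNAs taken out of the totals, 16 writers rose and 4 fell in the induced arm and 18 rose and 3 fell in the uninduced arm. Erasers then rose in 13 and fell in 12 cases in the induced arm, and rose in 13 and fell in 8 in the uninduced arm. Calls over all genes were 31.5% higher and 37.9% lower in the induced arm and 32.7% higher and 29.6% lower in the uninduced arm.

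The gap between writers and erasers in the share that rose was narrower among members of at least 10 TPM. In the induced arm it was reversed there. Among members of at least 10 TPM, 17 of 26 writers and 15 of 20 erasers rose in the induced arm, against 54.7% of all genes of that level that rose and 23.2% that fell. In the uninduced arm 21 of 26 writers and 15 of 20 erasers of that level rose, against 58.4% of such genes that rose and 16.9% that fell. Their median uninduced slopes were 0.15 for writers and 0.14 for erasers. In the TPM as deposited no eraser of at least 10 TPM fell in either arm. That count turned on the scaling: with median-of-ratios 4 of the 20 fell and 14 rose in the induced arm, and 1 fell and 12 rose in the uninduced arm. Under that scaling 19 of 26 writers of that level rose and 3 fell in the uninduced arm. A gap thus remained there, at 73.1% of writers that rose against 60.0% of erasers. In the induced arm 16 of the 26 writers rose and 3 fell, at 61.5% that rose against 70.0% of erasers. This comparison of levels was chosen after the values were seen.

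**Figure D2:**
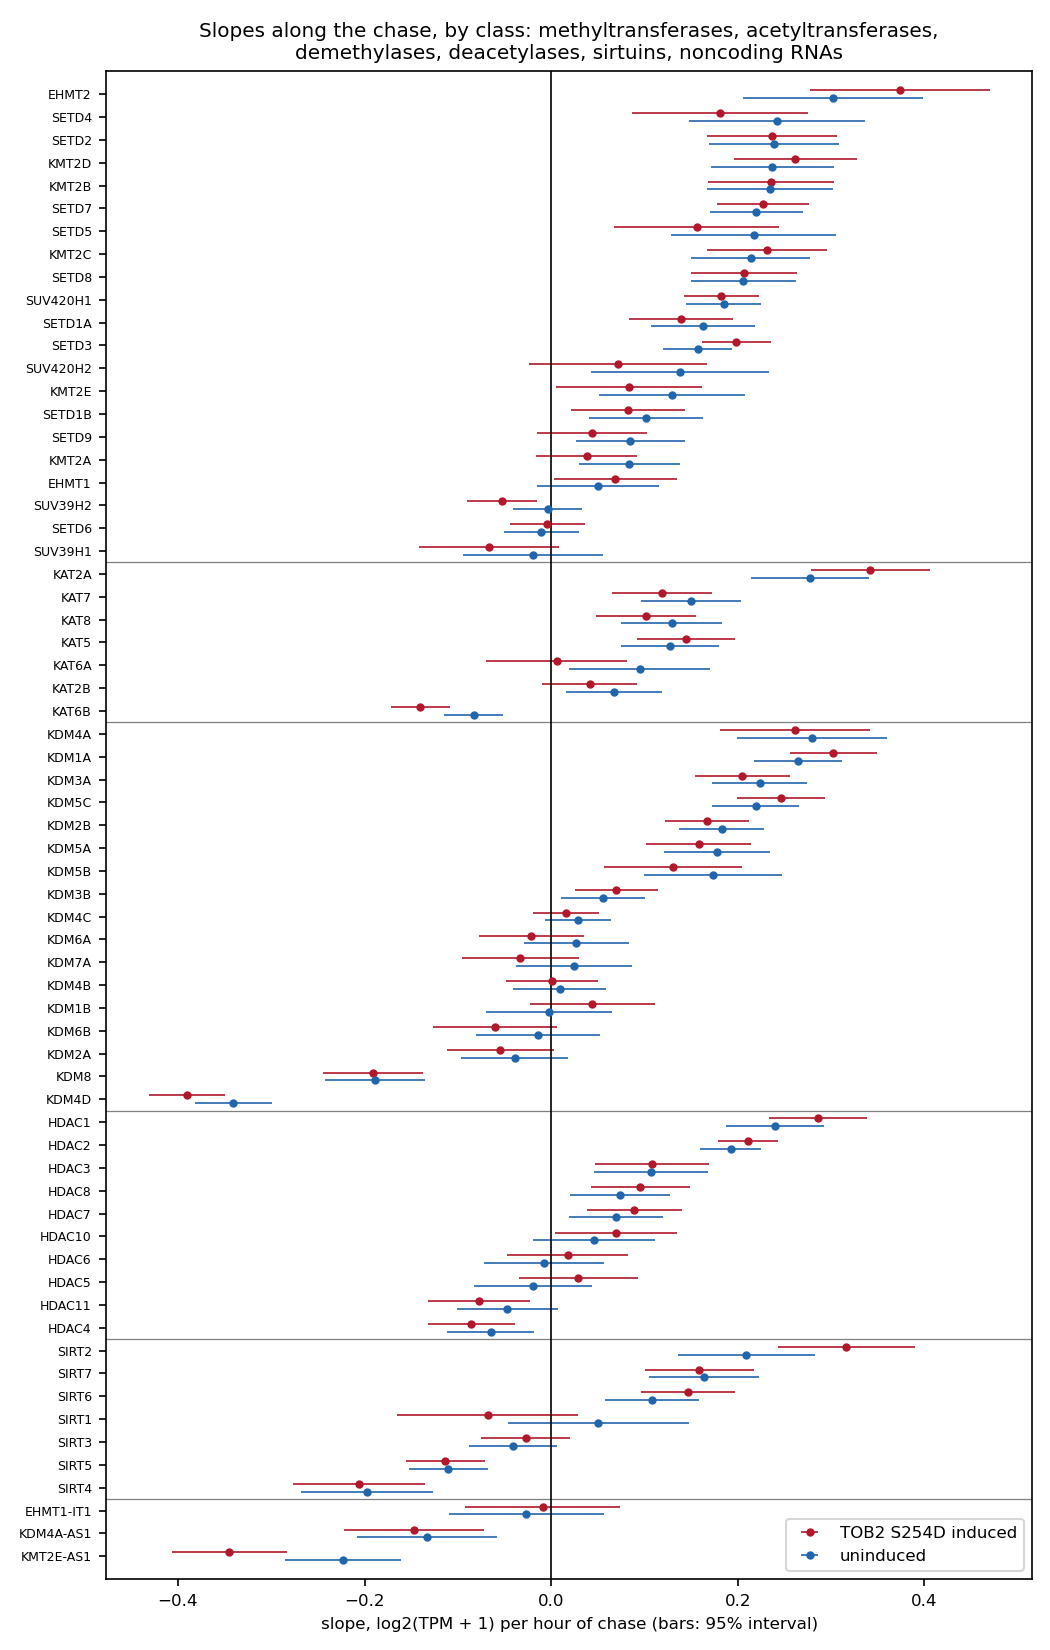
Points are slopes in log2(TPM + 1) per hour with 95% intervals, in red for the induced and blue for the uninduced arm, 1 line per symbol, ordered within each class by the uninduced slope. The intervals of both arms overlap for nearly every symbol, KDM4D has the lowest slopes among the enzymes, and EHMT2 has the highest slopes in both arms.

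Methyltransferases rose in 13 of 21 cases in the induced and 17 of 21 in the uninduced arm. Over all genes 41.6% rose in the induced and 42.8% in the uninduced arm. Among genes of at least 10 TPM these shares were 54.7% and 58.4%. SETD2, the enzyme that trimethylates lysine 36 of histone H3 in transcribed gene bodies, had 156 and 155 TPM at 6 h in induced cells, against 71.6 and 53.5 TPM at 0 h. In uninduced cells it had 150 and 146 TPM at 6 h, against 58.3 and 53.7 TPM at 0 h. All 4 libraries at 6 h lay above all 4 at 0 h, and the slope was 0.24 in each arm (SE 0.034, adjusted p 1.3e-06 in the induced and 1.5e-06 in the uninduced arm, limma).

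EHMT2, also called G9a, dimethylates lysine 9 of histone H3. It had 26.9 and 30.6 TPM at 6 h in induced cells, against 8.38 and 6.03 TPM at 0 h. In uninduced cells EHMT2 had 24.9 and 24.3 TPM at 6 h, against 9.07 and 6.13 TPM at 0 h. Its partner EHMT1 had much flatter values, with slopes of 0.069 in the induced and 0.050 in the uninduced arm (SE 0.032), neither past the threshold. The COMPASS methyltransferases KMT2D, KMT2B and KMT2C, which methylate lysine 4 of histone H3, rose in both arms with slopes of 0.21 to 0.26. KMT2A, of the same family, rose in the uninduced arm with a slope of 0.084 (SE 0.026), and its induced slope of 0.038 (SE 0.026) did not pass.

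SETD4 had slopes of 0.18 in the induced and 0.24 in the uninduced arm (SE 0.046). The lowest uninduced slopes of the class belonged to SUV39H1 and SETD6. SUV39H1, which trimethylates lysine 9 of histone H3 in heterochromatin, had -0.067 in the induced and -0.019 in the uninduced arm (SE 0.036), neither past the threshold. Its relative SUV39H2 fell in the induced arm with a slope of -0.053 (SE 0.018, adjusted p 0.012, limma), while its uninduced slope of -0.0038 did not pass. The difference between those slopes was -0.049 (SE 0.026) with an adjusted p of 0.46 in limma. The SUV39H2 sum is not all mRNA, since 21.5% of its TPM was given to the noncoding transcript NR_034181. That transcript rose, with slopes of 0.50 in the induced and 0.55 in the uninduced arm. NM_024670, with 43.6% of the TPM, fell with slopes of -0.51 in the induced and -0.34 in the uninduced arm. The limits of these splits are given with the transcripts below.

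Acetyltransferases rose in 4 of 7 cases in the induced arm and 6 of 7 in the uninduced arm. The shares that rose over all genes were 41.6% in the induced and 42.8% in the uninduced arm. For genes of at least 10 TPM they were 54.7% and 58.4%. KAT2A (GCN5), the acetyltransferase of the SAGA complex, had 34.0 and 34.6 TPM at 6 h in induced cells, against 9.48 and 7.94 TPM at 0 h. In uninduced cells it had 28.8 and 30.8 TPM at 6 h, against 11.4 and 8.16 TPM at 0 h. Its paralog KAT2B, at 4.60 TPM on average, had slopes of 0.041 in the induced arm, which did not pass, and 0.067 in the uninduced arm (SE 0.025), which did.

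KAT6B, a MOZ/MYST family acetyltransferase, was the exception among writers, since it fell in both arms. It had 11.5 and 11.3 TPM at 6 h in induced cells, against 22.0 and 19.8 TPM at 0 h, and 13.5 and 11.9 TPM at 6 h in uninduced cells, against 19.3 and 18.5 TPM at 0 h. The slopes were -0.14 in the induced and -0.083 in the uninduced arm (SE 0.015). Its paralog KAT6A had an induced slope of 0.0060 (SE 0.037), which did not pass, and rose in the uninduced arm with a slope of 0.095 (SE 0.037). KAT7 (HBO1), the most abundant of the class, rose in both arms with slopes of 0.12 in the induced and 0.15 in the uninduced arm (SE 0.026), and KAT5 (TIP60) with 0.14 in the induced and 0.13 in the uninduced arm (SE 0.025).

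Of 17 demethylases 8 rose and 2 fell in each arm, and with median-of-ratios scaling 7 rose and 6 fell in the induced arm and 7 rose and 3 fell in the uninduced arm. The shares over all genes were 41.6% that rose and 29.0% that fell in the induced arm, and 42.8% and 22.3% in the uninduced arm. KDM4A and KDM4D, which both demethylate lysine 9 of histone H3, moved in opposite directions. KDM4A had 81.8 and 77.6 TPM at 6 h in induced cells, against 35.1 and 27.8 TPM at 0 h, and 87.2 and 85.5 TPM at 6 h in uninduced cells, against 38.7 and 28.6 TPM at 0 h. KDM4D had 1.81 and 1.96 TPM at 6 h in induced cells, against 12.0 and 12.9 TPM at 0 h. In uninduced cells KDM4D had 2.99 and 2.57 TPM at 6 h, against 15.3 and 13.4 TPM at 0 h. The 2 libraries of each arm at 6 h were far below those at 0 h. On the log2(TPM + 1) scale KDM4D had the lowest slope of any enzyme. It was -0.39 in the induced arm (SE 0.020, adjusted p 4.4e-14, limma) and -0.34 in the uninduced arm (adjusted p 8.5e-13). As a fold of the mean TPM at 0 h, SIRT4 was at 0.110 at 6 h in the induced arm, against 0.151 for KDM4D, at very low TPM. In the uninduced arm the folds were 0.219 for SIRT4 and 0.194 for KDM4D. KDM4B and KDM4C, of the same family, had no slope past the threshold in either arm.

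KDM1A (LSD1), a flavin-dependent demethylase, rose to 111 and 104 TPM at 6 h in induced cells, against 37.1 and 30.4 TPM at 0 h. In uninduced cells it rose to 83.5 and 87.3 TPM at 6 h, against 35.6 and 30.0 TPM at 0 h. Its only paralog KDM1B, at 2.91 TPM on average, had slopes of 0.044 in the induced and -0.0023 in the uninduced arm (SE 0.033), neither past the threshold. KDM8 (JMJD5) fell in both arms with a slope of -0.19 (SE 0.026). KDM5A, KDM5B and KDM5C, which erase methylation of lysine 4 of histone H3, all rose in both arms, with slopes of 0.13 to 0.25.

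Deacetylases rose in 5 of 10 cases in each arm, and the class I enzymes HDAC1, HDAC2, HDAC3 and HDAC8 were among those in both arms. Of the 10, 2 fell in the induced and 1 in the uninduced arm. Over all genes 41.6% rose and 29.0% fell in the induced arm, and 42.8% rose and 22.3% fell in the uninduced arm. Those class I enzymes all averaged at least 10 TPM. Among genes of that level 54.7% rose in the induced and 58.4% in the uninduced arm. With median-of-ratios scaling 5 rose and 2 fell in the induced arm, and 3 rose and 2 fell in the uninduced arm. That scaling gave 35.0% of all genes that rose and 36.2% that fell in the induced arm. In the uninduced arm it gave 30.3% and 32.3%. HDAC1 had 98.9 and 100.4 TPM at 6 h in induced cells, against 37.5 and 29.1 TPM at 0 h. In uninduced cells it had 84.0 and 82.2 TPM at 6 h, against 33.9 and 24.2 TPM at 0 h. HDAC2, its close paralog and partner in the same complexes, had slopes of 0.21 in the induced and 0.19 in the uninduced arm (SE 0.016). HDAC4, a class IIa enzyme that shuttles between nucleus and cytoplasm, fell in both arms with slopes of -0.085 in the induced and -0.065 in the uninduced arm (SE 0.023). HDAC11 fell in the induced arm with a slope of -0.077 (SE 0.026), and its uninduced slope of -0.047 did not pass.

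Sirtuins, deacylases that consume NAD, rose in 3 of 7 cases and fell in 2 of 7 in each arm, shares near those over all genes. With median-of-ratios scaling 3 rose and 4 fell in the induced arm, and 3 rose and 3 fell in the uninduced arm. The shares over all genes were then 35.0% and 36.2% in the induced arm, and 30.3% and 32.3% in the uninduced arm. SIRT7, a nucleolar member, had slopes of 0.16 in each arm (SE 0.028). SIRT2, a mainly cytoplasmic tubulin deacetylase, was low, with 5.69 and 6.31 TPM at 6 h in induced cells, against 0.54 and 0.86 TPM at 0 h. In uninduced cells SIRT2 had 6.27 and 4.48 TPM at 6 h, against 1.96 and 0.93 TPM at 0 h. These sums are not all mRNA, since 58.3% of the SIRT2 TPM was given to the noncoding transcript NR_034146. That transcript had slopes of 0.063 in the induced and 0.20 in the uninduced arm (SE 0.094), neither past the threshold. The mitochondrial SIRT4 and SIRT5 fell in both arms. SIRT5 had slopes of -0.11 in each arm (SE 0.021), and SIRT4 had -0.21 in the induced and -0.20 in the uninduced arm (SE 0.034).

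The antisense RNAs KDM4A-AS1 and KMT2E-AS1 also fell in both arms, while the slopes of EHMT1-IT1 did not pass. KMT2E-AS1 had slopes of -0.34 in the induced and -0.22 in the uninduced arm (SE 0.030), beside slopes for KMT2E of 0.084 in the induced arm (SE 0.038, adjusted p 0.052 in limma) and 0.13 in the uninduced arm. The sources used here do not say whether reads were assigned by strand, so reads from stretches shared by an antisense RNA and its partner cannot be told apart.

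A straight line hid a peak for many enzymes. In the induced arm 30 of 62 had their highest mean at 2 or 4 h and 20 at 6 h, against 28.0% and 33.8% of all genes. In the uninduced arm 26 peaked at 2 or 4 h and 24 at 6 h, against 28.7% and 36.3% of all genes. SETD5 had 157 and 197 TPM at 4 h in induced cells and 117 and 119 TPM at 6 h. In uninduced cells SETD5 had 163 and 173 TPM at 4 h and 132 TPM in both libraries at 6 h. Comparing the arms, 14 enzymes peaked at an earlier time in the induced arm, 10 at a later time and 38 at the same time, against 25.7% earlier and 17.6% later over all genes.

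The question set by the design is whether induction changed these courses. No enzyme and no noncoding RNA had a slope difference, induced minus uninduced, past the threshold, against 0.343% of all genes. At an unadjusted p below 0.05, limma counted 2 of 62 enzymes, against 12.5% of all genes. These were KAT6B, whose difference was -0.057 (SE 0.022, adjusted p 0.25), and SIRT2, with 0.11 (SE 0.050, adjusted p 0.39). KMT2E-AS1 had a difference of -0.12 with an adjusted p of 0.22 in limma. Estimates for the enzymes ran from -0.12 for SIRT1 to 0.11 for SIRT2. The 95% intervals were 0.080 log2 units per hour to either side at the median, from 0.045 for KAT6B to 0.14 for SIRT1, and the p-values do not show that the slopes were alike.

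At 0 h no enzyme differed between the arms after adjustment, against 0.0298% of all genes. At an unadjusted p below 0.05 limma counted 4 of 62, against 6.57% of all genes, and the smallest adjusted p was 0.54, for SIRT4. SIRT4 had 1.62 and 1.48 TPM in induced cells at 0 h, against 3.53 and 3.19 TPM in uninduced cells.

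Averaged over the 6 times, 7 enzymes were higher and 6 lower in induced cells, against 14.3% and 11.4% of all genes. The total of 13 of 62 is 21.0%, beside 25.7% of all genes in either direction, so the share was near the background. By role, 3 writers were higher and 1 lower, and 4 erasers were higher and 5 lower. Each of the 13 enzymes had a mean on the same side at all 6 times.

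The enzymes higher in induced cells included KDM3A, a demethylase of lysine 9 of histone H3. It had 40.1 and 34.5 TPM at 6 h in induced cells, against 30.3 and 29.3 TPM in uninduced cells, and 18.4 and 13.7 TPM at 0 h in induced cells, against 12.3 and 12.8 TPM in uninduced cells. Induced libraries were all above uninduced ones at 5 of 6 times, and the mean difference was 0.28 (SE 0.064, adjusted p 0.0055, limma). KMT2C had 35.4 and 34.7 TPM at 6 h in induced cells, against 27.6 and 27.3 TPM in uninduced cells, with a mean difference of 0.29 (SE 0.073, adjusted p 0.0085). KDM7A, KDM1A, KMT2E and SUV420H1 were higher by 0.26, 0.19, 0.22 and 0.14. KDM7A averaged 4.36 TPM, and the gap lay mainly at 0 to 2 h, where it had 5.66 and 4.79 TPM at 0 h in induced cells, against 3.81 and 3.45 TPM in uninduced cells.

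HDAC5, a class IIa deacetylase, had the highest positive mean difference among the enzymes, 0.37 (SE 0.088, adjusted p 0.0058, limma), at low levels. It had 5.34 and 5.68 TPM at 4 h in induced cells, against 2.98 and 3.00 TPM in uninduced cells, and 3.69 and 4.28 TPM at 6 h in induced cells, against 2.62 and 3.06 TPM in uninduced cells. All induced libraries were above all uninduced ones at 4 of 6 times. The related HDAC4 went the other way, with 4.45 and 4.66 TPM at 6 h in induced cells, against 6.79 and 5.45 TPM in uninduced cells, and a mean difference of -0.25 (SE 0.058, adjusted p 0.0059).

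SUV39H1 was lower in induced cells. It had 34.5 and 42.2 TPM at 6 h in induced cells, against 52.2 and 53.3 TPM in uninduced cells, and 55.8 and 53.4 TPM at 0 h in induced cells, against 65.1 and 67.3 TPM in uninduced cells. The mean difference was -0.31 (SE 0.067, adjusted p 0.0030, limma). KDM4B (-0.32), KDM8 (-0.32), KDM4D (-0.21) and SIRT4 (-0.52) were also lower, all at mean levels under 10 TPM. SIRT4 ranged from 0 to 2.47 TPM in the induced libraries and from 0.57 to 3.53 TPM in the uninduced ones, so its difference rests on very low values. KMT2E-AS1 was lower by 0.20 with an adjusted p of 0.045 in limma. That call was lost in 17 of 24 fits that each left out 1 library, and that of SUV420H1 in 15 of 24.

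Each replicate series was also fitted alone. That left 1 library per group, so a model with time as a factor and an additive arm term was used. Its spread is the variation of the arm difference over time, not that between libraries of a group. Of the enzymes called above, only KDM3A, KMT2C and SIRT4 kept their call in both series. With replicate 1 alone 5 enzymes were called and with replicate 2 alone 15. The induced libraries of replicate 2 at 0 and 0.5 h also stood apart in the share of the 3 abundant noncoding RNAs, at 27.5% in both, against 19.3% to 22.6% in the uninduced libraries of those times. With median-of-ratios scaling the count was 7 higher and 14 lower, against 14.2% and 16.8% of all genes, and the 13 enzymes called above were called in the same direction.

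Over 4 and 6 h, 1 enzyme was higher and 6 were lower in induced cells, against 4.19% and 12.0% of all genes. SIRT1 gave the smallest adjusted p. It is a nuclear NAD-dependent deacetylase of histones and of p53. SIRT1 had 37.6 and 41.5 TPM at 4 h in induced cells, against 62.2 and 60.0 TPM in uninduced cells. At 6 h it had 30.3 and 23.9 TPM in induced cells, against 39.8 and 33.1 TPM in uninduced cells. At 2 h the arms overlapped, with 58.7 and 60.4 TPM in induced cells against 58.2 and 60.4 TPM in uninduced cells. At 0.5 h both induced libraries were higher, with 44.7 and 33.3 TPM in induced cells against 32.0 and 30.8 TPM in uninduced cells. The arms overlapped at 0, 1 and 2 h, and both induced libraries were lower at 4 and 6 h. The late difference was -0.52 (SE 0.10, adjusted p 0.0022, limma), and it stayed past the threshold in all 24 fits that left out 1 library, with a largest adjusted p of 0.017. In the late difference less that at 0 and 0.5 h, a contrast added after the data were seen, SIRT1 alone of the 65 symbols passed, against 4.67% of all genes.

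**Figure D3:**
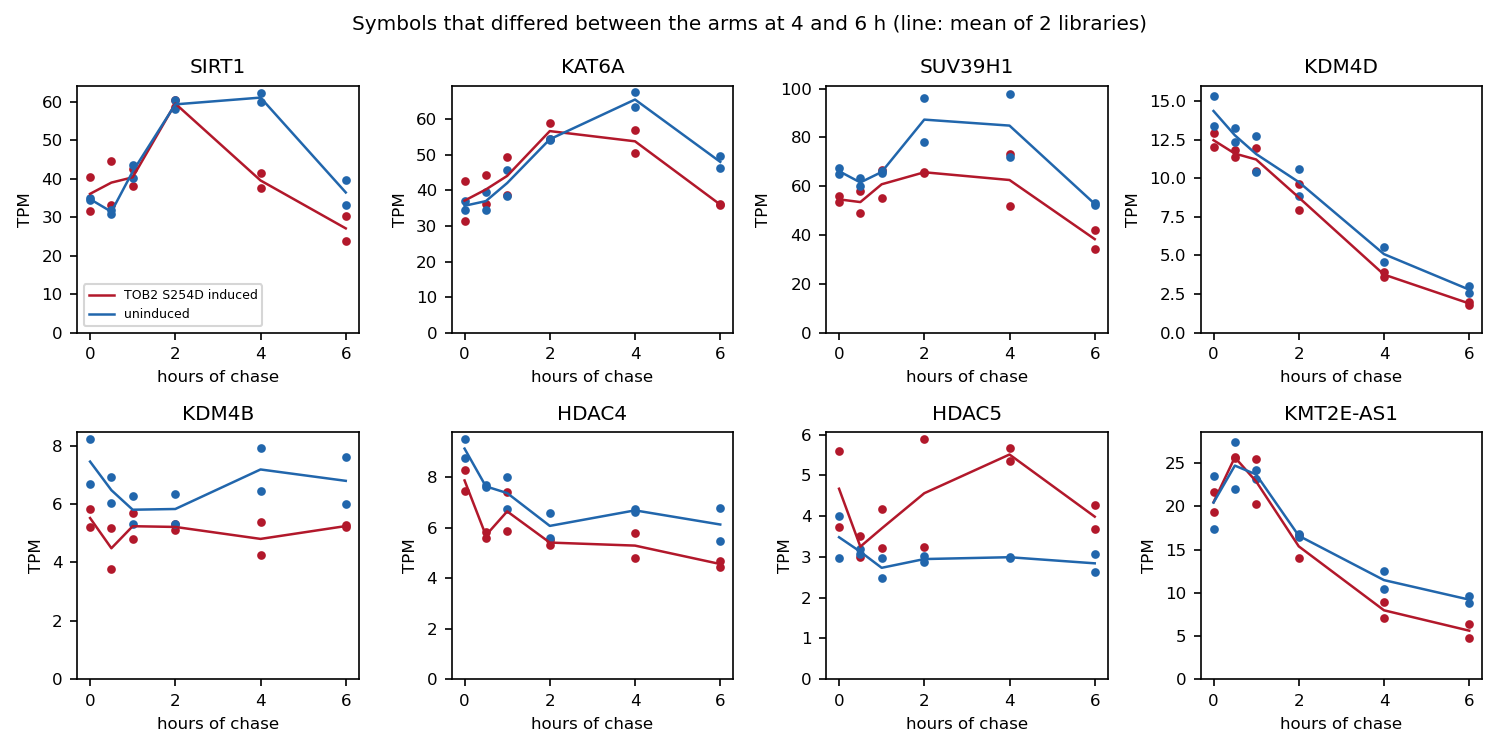
TPM against hours of chase for the 7 enzymes and KMT2E-AS1 called at 4 and 6 h, with points for single libraries and lines for the mean of 2, in red for the induced and blue for the uninduced arm. For SIRT1 the arms lie together at 2 h and apart at 4 h, where induced libraries are at 37.6 and 41.5 TPM and uninduced ones at 62.2 and 60.0 TPM. At 4 and 6 h HDAC5 is the only panel with the induced arm above.

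KAT6A had a course of the same kind. It had 58.9 and 54.5 TPM at 2 h in induced cells, against 54.3 and 54.5 TPM in uninduced cells, and 35.9 and 36.2 TPM at 6 h in induced cells, against 49.7 and 46.4 TPM in uninduced cells. The late difference was -0.34 (SE 0.10, adjusted p 0.034, limma). SUV39H1 (-0.45), KDM4B (-0.40), KDM4D (-0.37) and HDAC4 (-0.32) were lower and HDAC5 (0.54) higher. At 4 h the induced mean of SUV39H1 was 62.6 TPM, against 84.9 TPM in uninduced cells. The same means were 4.8 and 7.2 TPM for KDM4B, 3.8 and 5.1 TPM for KDM4D and 5.3 and 6.7 TPM for HDAC4. At 6 h KDM4B averaged 5.2 TPM in induced and 6.8 TPM in uninduced cells. Single libraries are shown in the plot of time courses.

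KMT2E-AS1 had 7.02 and 8.91 TPM at 4 h in induced cells, against 10.5 and 12.5 TPM in uninduced cells, and 4.78 and 6.43 TPM at 6 h in induced cells, against 9.62 and 8.78 TPM in uninduced cells. Its late difference was -0.56 (SE 0.12, adjusted p 0.0042, limma), and it too was called in all 24 fits that left out 1 library. For the other 6 enzymes the call was lost in 3 to 7 of those fits. With the single libraries of 4 or 6 h left out in turn, 2 to 6 enzymes were called.

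Summed over members, writers had 1.50 ± 0.0266 times the TPM of erasers at 0 h in induced cells and 1.49 ± 0.0517 times in uninduced cells (SD, n = 2). The ratio is taken within a library and does not depend on its scaling. In induced cells it was 1.58, 1.61, 1.69, 1.75 and 1.59 at 0.5, 1, 2, 4 and 6 h, and in uninduced cells 1.56, 1.63, 1.72, 1.75 and 1.70. The arms kept close until 4 h. At 6 h the ratio was 1.58 and 1.61 in the induced libraries, against 1.69 and 1.71 in the uninduced ones, with no overlap. The writers then summed to 1415 ± 5.64 TPM in induced and 1473 ± 28.8 TPM in uninduced cells, and the erasers to 888 ± 14.8 TPM in induced and 867 ± 25.0 TPM in uninduced cells (SD, n = 2). No test was made of this sum over chosen members.

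**Figure D4:**
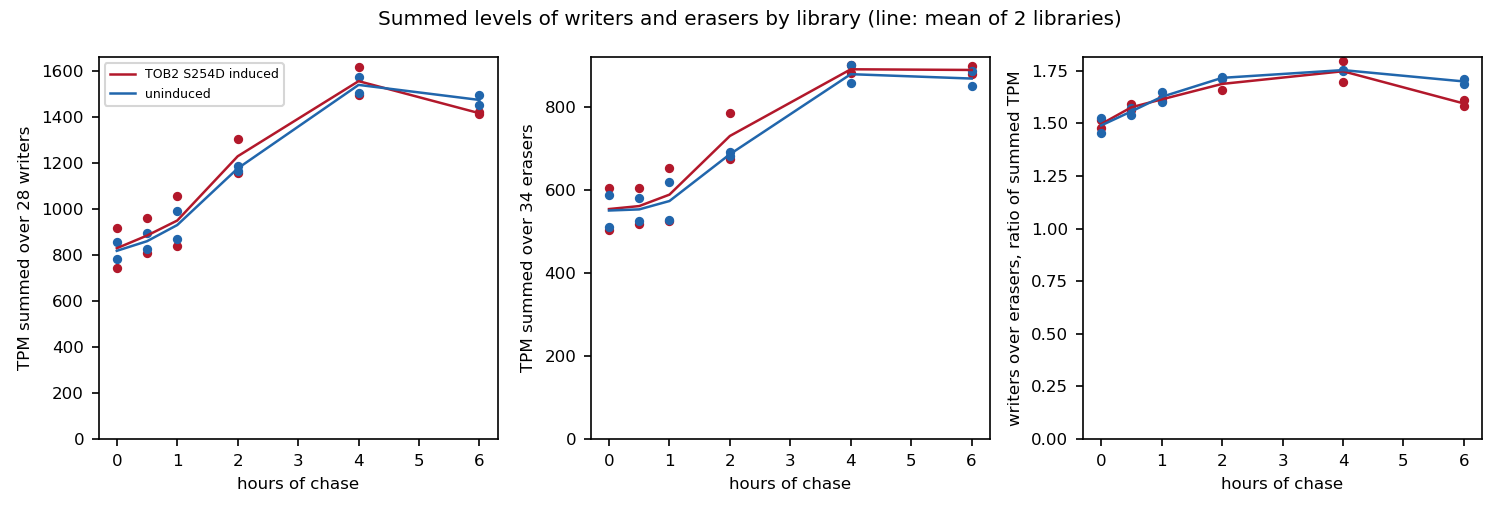
TPM summed over 28 writers, over 34 erasers, and the ratio of both, against hours of chase, with points for single libraries and lines for the mean of 2, in red for the induced and blue for the uninduced arm. The ratio climbs to 1.75 at 4 h in both arms, and at 6 h the induced libraries are at 1.58 and 1.61 and the uninduced ones at 1.69 and 1.71.

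Transcripts of one enzyme gene did not always move together. Of the 65 symbols, 28 had at least 2 transcripts of 1 TPM or more, 75 transcripts in all. In 4 of these 28, KDM2A, SUV420H1, SUV39H2 and KDM6A, 1 transcript rose and another fell in both arms. The same held for 3.87% of the 4830 genes with at least 2 transcripts of that level. How the estimation split reads shared by transcripts makes these values less certain than the gene sums, and they were examined after the data were seen.

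KDM2A, a demethylase of lysine 36 of histone H3, looked flat as a sum, with slopes of -0.055 in the induced and -0.039 in the uninduced arm (SE 0.028), neither past the threshold. Its transcript NM_001256405 fell to 7.04 and 7.63 TPM at 6 h in induced cells, against 40.3 and 43.2 TPM at 0 h. In uninduced cells it had 9.62 and 7.91 TPM at 6 h, against 45.1 and 49.7 TPM at 0 h. The transcript NM_012308 went up over the same time, with 43.3 and 41.6 TPM at 6 h in induced cells, against 24.9 and 22.6 TPM at 0 h. In uninduced cells NM_012308 had 44.5 and 47.2 TPM at 6 h, against 23.1 and 22.8 TPM at 0 h. The slopes were -0.41 in the induced and -0.37 in the uninduced arm for NM_001256405, and 0.20 in the induced and 0.18 in the uninduced arm for NM_012308.

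SUV420H1, a methyltransferase of lysine 20 of histone H4, showed the same contrast. Its transcript NM_016028 had 67.8 and 62.8 TPM at 6 h in induced cells, against 16.4 and 15.0 TPM at 0 h, and NM_017635 had 12.0 and 9.72 TPM at 6 h in induced cells, against 21.9 and 18.0 TPM at 0 h. In uninduced cells NM_016028 had 56.1 and 54.7 TPM at 6 h, against 16.1 and 14.3 TPM at 0 h, and NM_017635 had 13.5 and 11.4 TPM at 6 h in uninduced cells, against 19.1 and 19.8 TPM at 0 h. The uninduced fall of NM_017635, with a slope of -0.072, was lost in 6 of 24 fits that each left out 1 library. Transcripts of SUV39H2 and KDM6A were at 0 TPM in many libraries, and their calls did not hold with every replicate series alone.

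**Figure D5:**
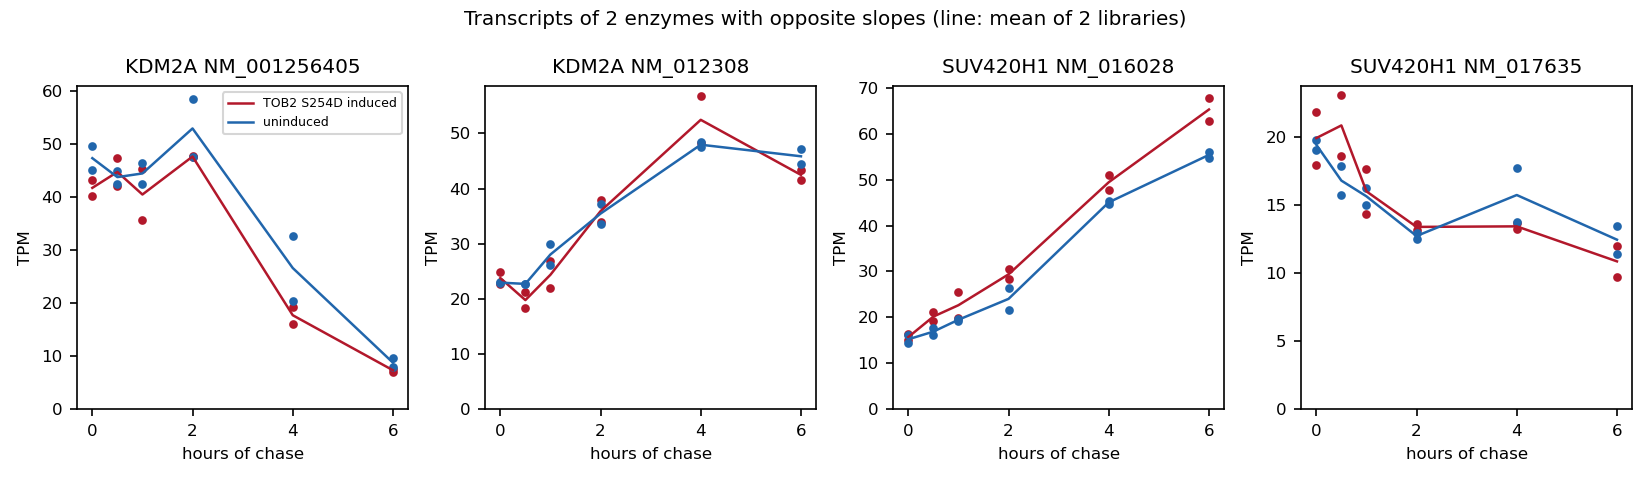
TPM of 2 transcripts each of KDM2A and SUV420H1 against hours of chase, with points for single libraries and lines for the mean of 2, in red for the induced and blue for the uninduced arm. In both arms NM_001256405 and NM_017635 go down while NM_012308 and NM_016028 go up.

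HDAC5 illustrates the limit of such splits. At 6 h in induced cells all of its TPM was given to NM_001015053, at 3.69 and 4.28 TPM, and NM_005474 was listed at 0. In uninduced cells NM_001015053 was at 0.11 and 0.06 TPM at 6 h and NM_005474 at 2.51 and 3.00 TPM. At 0 h NM_005474 held nearly all of the TPM in both arms, with 5.53 and 3.57 TPM in induced and 3.88 and 2.84 TPM in uninduced cells. The gene sum was higher in induced cells at both times, whereas NM_005474 alone, the more abundant transcript on average, gave a late difference of -1.62.

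Partners and relatives of the members were counted from lists of symbols that carry other names. Over all genes 41.6% rose and 29.0% fell in the induced arm, and 42.8% rose and 22.3% fell in the uninduced arm. Among genes of at least 10 TPM, 54.7% rose in the induced and 58.4% in the uninduced arm. With median-of-ratios scaling the shares over all genes that rose were 35.0% in the induced and 30.3% in the uninduced arm. PRC2 partners, which work with the enzymes that methylate lysine 27 of histone H3, rose in 6 of 8 cases in the induced and 8 of 8 in the uninduced arm, and none fell. COMPASS partners, found in some or all of the KMT2 and SETD1 complexes, rose in 10 of 11 cases in the induced arm. In the uninduced arm 9 of 11 rose, and none fell in either arm. With median-of-ratios scaling 1 of the 11 fell in each arm. Scaffolds of deacetylase complexes rose in 19 of 25 cases in each arm and fell in 2, and 1 had a lower slope in induced cells. With median-of-ratios scaling 17 of the 25 rose and 3 fell in the induced arm, and 16 rose and 2 fell in the uninduced arm. At 4 and 6 h, 3 of the 25 were higher and 4 lower in induced cells, against 7 higher and 3 lower with median-of-ratios scaling. Over all genes 4.19% were higher and 12.0% lower, and with that scaling 1078 of 13416 genes were higher and 1828 lower.

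Scaffolds of acetyltransferase complexes rose in 12 of 27 cases and fell in 5 in the induced arm, and rose in 15 and fell in 3 in the uninduced arm. For these and the lists below, the shares over all genes that rose were 41.6% in the induced and 42.8% in the uninduced arm. Among genes of at least 10 TPM they were 54.7% and 58.4%. At 4 and 6 h, 5 of these 27 scaffolds were lower in induced cells and none higher, against 12.0% and 4.19% of all genes. With median-of-ratios scaling 9 were lower and none higher, against 1828 of 13416 genes lower and 1078 higher. That scaling gave 10 that rose and 7 that fell along the chase in the induced arm, and 12 that rose and 6 that fell in the uninduced arm. Among arginine methyltransferases 5 of 8 rose and 2 fell in the induced arm, and 4 rose and none fell in the uninduced arm. Other lysine methyltransferases rose in 10 of 14 cases in the induced and 11 of 14 in the uninduced arm, and 2 fell in each arm. Other acetyltransferases rose in 5 of 9 cases and fell in 2 in the induced arm, and rose in 6 and fell in 1 in the uninduced arm. Other JmjC proteins rose in 3 of 9 cases and fell in 2 in the induced arm, and rose in 4 and fell in 3 in the uninduced arm. With median-of-ratios scaling 2 of the JmjC proteins rose and 3 fell in each arm, and 2 arginine methyltransferases fell in each arm. Of the 3 BET proteins, which read acetylated lysines, 1 rose and 1 fell in each arm. Median slopes of these lists ran from -0.023 to 0.16 in the induced arm and from 0.022 to 0.17 in the uninduced arm, beside 0.028 in the induced and 0.039 in the uninduced arm over all genes.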

How the data were processed

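The deposited table gave TPM for RefSeq transcripts in 24 libraries, and all libraries had the same total, so depth and counting error are unknown. Per the submitters' processing notes, the build was hg19 and the tools were RSEM 1.3.0, Bowtie2 and Trim Galore, with no roles given. TPM was summed per symbol, and genes averaging at least 1 TPM were kept. Where a symbol is an antisense RNA, whether counting used strand is not given in the sources used here.

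limma 3.58.1 in R 4.3.3 was fitted to log2(TPM + 1) with a variance trend. The pseudocount understates changes of low genes. A slope model (20 residual degrees of freedom) gave the slope per arm and the slope difference. A model of 12 group means (12 residual degrees of freedom) gave differences at 0 h, over all times and at 4 and 6 h, all induced minus uninduced. With a replicate series alone these differences came from a model of time as a factor with an additive arm term. That term had its own value at 0 h, or at 4 and 6 h, for those differences. Tests were two-sided, with Benjamini-Hochberg adjustment over 13416 genes and a threshold of 0.05. The method was tested on simulated data.

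Members and lists were chosen with earlier results of these data known. Named genes were those of each class with the highest levels, the highest and lowest uninduced slopes and the smallest p of the slope difference, plus members past the threshold in a comparison of arms. KMT2, KDM5 and other relatives were named as family background, and transcripts after their values were seen.

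Same-numbered libraries of the arms shared deviations with a correlation of 0.020 to 0.16 across genes by time, so numbers were not taken to pair libraries.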

Additional observations from a re-analysis of the deposited data

Results flagged for a closer look

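For SIRT1 the difference between the induced and uninduced arms was not the same late and early in the chase. The induced minus uninduced difference at 4 and 6 h was lower than that at 0 and 0.5 h by a contrast of -0.683 in log2(TPM + 1) (SE 0.15, adjusted p 0.012, limma with Benjamini-Hochberg adjustment over 13416 genes). It was the only member past the threshold for this contrast, against 4.67% of all genes, and the contrast was chosen after the data were seen. SIRT1 had 40.5 and 31.6 TPM at 0 h in induced cells, against 34.9 and 34.5 TPM in uninduced cells. At 0.5 h it had 44.7 and 33.3 TPM in induced cells, against 32.0 and 30.8 TPM in uninduced cells. The contrast therefore also holds an early gap in the opposite direction, and the late difference alone was -0.52. At 4 h it had 37.6 and 41.5 TPM in induced cells, against 62.2 and 60.0 TPM in uninduced cells. The next smallest p belonged to KMT2E-AS1 (-0.60, adjusted p 0.058) and KAT6A (-0.42, adjusted p 0.13).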

How the results depend on the processing

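Depth was unknown, and 2 libraries per arm and time limit small differences. Counts of called enzymes were 45 for the uninduced slope and 41 for the induced slope, and leaving out single libraries gave 41 to 45 and 41 to 44. The slope difference and the 0 h difference stayed at 0 in each of those fits, and the added late minus early contrast called 1. The mean difference (13 enzymes) gave 23 with quantile normalization, 21 with median-of-ratios scaling, 12 to 15 without single libraries and 5 without replicate 2. The late difference (7) gave 11 with either scaling, 4 with the most abundant transcript alone and 4 without replicate 2. Leaving out single libraries gave 2 to 8 for it: 2 without uninduced 6 h replicate 1, induced 4 h replicate 1 or uninduced 4 h replicate 2, and 3 without uninduced 4 h replicate 1 or either induced 6 h library. The cause was not tested. Counts of arm differences without a replicate come from the model with an additive arm term, whose spread is not that between libraries of a group.

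With a replicate block the calls were 45 for the uninduced slope, 44 for the induced slope, 19 for the mean difference and 12 for the late difference. Calls over all genes also rose. The mean difference called 3454 genes, against 4095 with quantile normalization, 4167 with median-of-ratios scaling and 4721 with the block. The late difference called 2170 genes, against 2790, 2906 and 3073 in the same order. The difference between the median uninduced slopes of writers and erasers was 0.096. It was 0.075 without members best known for non-histone substrates, 0.047 with quantile normalization, 0.017 among members of at least 10 TPM, and 0.11 without replicate 1 and 0.10 without replicate 2.

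A sign change was counted only when a value passed the threshold in either fit. With its most abundant transcript alone, HDAC5 turned to an induced slope of -0.41, a mean difference of -0.52 and a late difference of -1.62, since that transcript was listed at 0 where the other held the TPM. SUV39H1 had an uninduced slope of 0.11 over 0 to 4 h. Over all genes the slope difference called 46 genes, against 88 with a pseudocount of 0.1, 84 at 5 TPM or more, 30 with no filter, 179 with quantile normalization, 99 with a replicate block, 331 without the 3 abundant noncoding RNAs, 19 with the most abundant transcript alone and 0 for times 0 to 4 h or with either replicate series alone.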
